A study of Mus musculus with 28 samples.

Results

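Cell cycle and proliferation genes were followed in the livers of mice with nonalcoholic steatohepatitis treated with 2 agonists of the farnesoid X receptor (FXR), the nuclear receptor for bile acids. The 40 members were listed by symbol, with earlier results of these data known, as cyclins, cyclin-dependent kinases (CDKs), CDK inhibitors, replication proteins, and mitotic proteins in common use as markers of dividing cells, and all 40 were among the 21935 genes of the counts table. Male B6.V-Lepob/JRj mice, which lack leptin in the whole body and were 5 weeks old on arrival, received the AMLN diet, a high-fat diet with added fructose and cholesterol, over 14 weeks and then, still on it, oral treatment once daily over 2 weeks. The groups were vehicle (carboxymethylcellulose; 10 mice), obeticholic acid (OCA) 30 mg/kg (9 mice), and INT-787 30 mg/kg (9 mice), and each mouse gave 1 library of whole liver. Leptin deficiency, diet, and sex were thus shared by all groups, there was no lean or chow-fed group, and both drugs were compared with the same vehicle mice. The paper also describes a surgical wedge biopsy of the left lateral liver lobe before treatment, and calls the sequenced mice biopsy-proven. By that account this loss of tissue was shared by the groups as well.

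A cell that divides passes from G1, where cyclin D with CDK4 or CDK6 inactivates the RB protein and releases the E2F factors, into S phase, where the MCM helicase and PCNA copy the DNA, and then into G2 and mitosis, where CDK1 with cyclins A and B and the Aurora and Polo-like kinases drive chromosome segregation. Genes of the G1/S wave are known targets of E2F, and genes of the G2/M wave are known to be held down in resting cells by the DREAM complex and switched on by B-MYB and FOXM1. Most hepatocytes of the adult liver rest outside the cycle and re-enter it after injury or loss of tissue, a response in which FXR is known to take part, whereas macrophages, stellate cells, and endothelial cells of the diseased liver can divide as well.

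The libraries held between 1009593 and 22421506 counts. Vehicle replicate 6 was the smallest and the next mouse had 9313260, so that several mitotic members rested on 0 to 2 counts in vehicle replicate 6. Vehicle replicate 5 stood apart in another way. Over 58 genes that lie for the most part across an exon of a gene on the opposite strand, it had a summed normalized expression of 1240 counts scaled to a library of fixed size (CPM) against 188 to 252 in the other 27 mice, and 10 members overlap such an exon (Ccnd1, Ccne2, Cdk2, Cdk4, Mcm7, Tk1, Ccna2, Kif20a, Cdc20, and Ube2c). For several members whose call rests on these mice, values without them are given as well. The 8 hepatocyte markers, which define the labelled tissue, summed to 62273 CPM or more in every mouse.

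Of the 40 members, 39 had enough counts to be tested (Kif11, a mitotic spindle motor, did not, with group means of 0.397 to 0.666 CPM), in a model of 12580 genes with edgeR's quasi-likelihood test and Benjamini-Hochberg adjustment over all of them. A gene is said to have risen or fallen where its adjusted p was at most 0.05. Compared with vehicle, INT-787 raised 1 member (Ccnd1) and lowered 7 (Ccnd2, Cdkn1a, Ccna2, Aurkb, Birc5, Kif20a, and Mki67). Over all genes tested, 19.6% were called in that comparison, 10.2% higher and 9.48% lower. The 8 of 39 members called are thus a share near the background, but their balance was toward lower values. The median log2 fold change of the members was -0.50 against -0.001 over all genes, and 30 of 39 were negative. In whole liver, fewer cells of a type and less RNA per cell cannot be told apart, which holds for each level below.

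OCA raised 2 members (Ccnd1 and Mcm6) and lowered 1 (Cdkn1a) compared with vehicle, where 6.6% of all genes were called, 4.15% higher and 2.45% lower. The median of the members was 0.09 against 0.02 over all genes, with 23 positive and 16 negative, but without OCA replicate 8 it was -0.12, with 18 positive and 21 negative. Between the drugs, the 1 pair of compounds compared here and given at the same dose and time, 1 member was higher with INT-787 (Ccnd1) and 3 were lower (Mcm6, Cdk1, and Aurkb), against a background of 5.38% called, 2.19% higher and 3.19% lower. In this comparison 37 of 39 members were negative, with a median of -0.41 against -0.01 over all genes, and without OCA replicate 8 the median was -0.27, with 34 negative and 5 positive and 1 member lower (Aurkb). At an unadjusted p under 0.05 stood 20, 13, and 15 members in the 3 comparisons, against 32.3%, 18.5%, and 18.9% of all genes. The balance of calls over all genes depended on the scaling. With upper-quartile normalization 37.5% of calls were higher with INT-787 in place of 51.7%, and 52.3% were higher with OCA in place of 62.9%, while the count of members higher stayed at 1 with INT-787 and at 2 with OCA. With the same scaling the count of members lower with INT-787 was 12 in place of 7, 9 of them among the 17 mitotic members in place of 5, and the count lower in INT-787 than in OCA mice was 5 in place of 3.

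**Figure D1:**
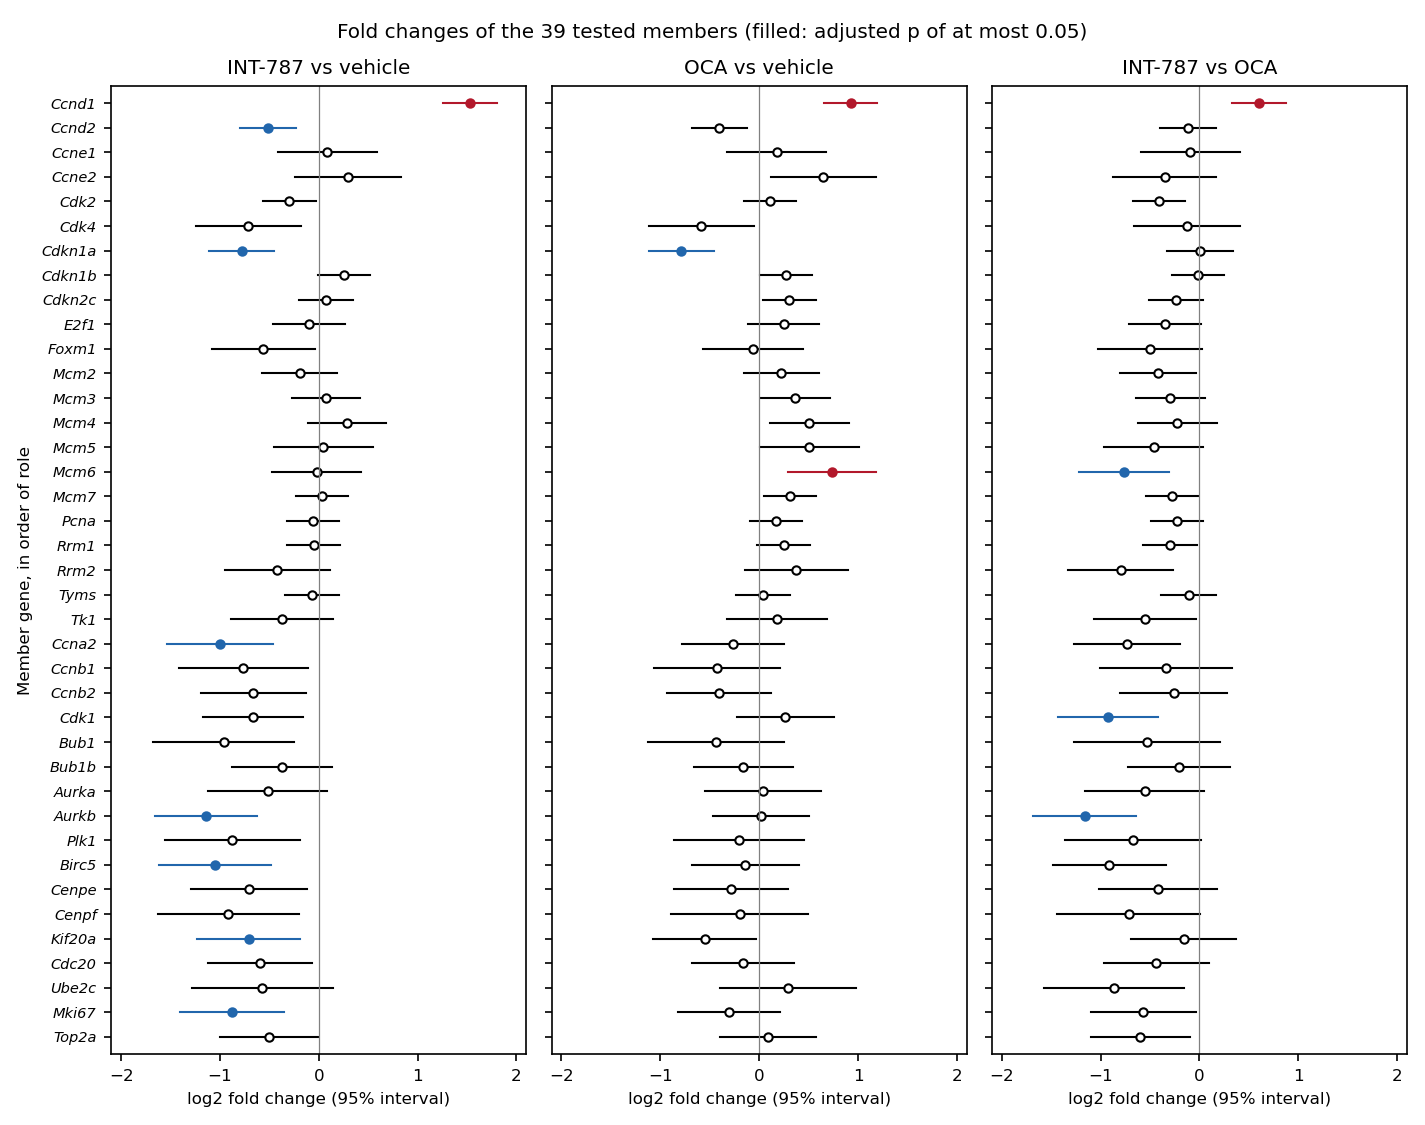
Log2 fold change (x axis) with its 95% interval for each of the 39 tested members (y axis, in order of role from G1 cyclins to mitotic chromosome proteins) in the 3 comparisons, with filled points at an adjusted p of at most 0.05 (red higher, blue lower). Ccnd1 lies to the right in every panel, and the lower part of the left panel, from Ccna2 down to Top2a, has every point to the left of 0.

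The largest change of any member in both comparisons with vehicle was that of Ccnd1, which encodes cyclin D1, the cyclin that links growth signals to CDK4 and CDK6 in G1 (chr7:144929931-144939925, minus strand, GRCm38). Its lowest, median, and highest values were 95.7, 140, and 158 CPM with vehicle, 166, 235, and 347 CPM with OCA, and 288, 399, and 477 CPM with INT-787. Every mouse on either drug was above every vehicle mouse, and all 9 mice on INT-787 were above the median of OCA, 5 of them above its highest mouse. Ccnd1 rose 2.89-fold with INT-787 (log2 fold change 1.53, SE 0.13, adjusted p = 3.1e-10) and 1.90-fold with OCA (0.93, SE 0.13, adjusted p = 1.3e-05). It was 1.52-fold higher with INT-787 than with OCA (0.60, SE 0.14, adjusted p = 0.0064). These 3 calls held in all 39 alternative settings. The vehicle mouse with opposite-strand reads did not stand out for this gene, although 1100 bases of its exons overlap a gene on the other strand.

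Ccnd2, the cyclin D2 gene (chr6:127125162-127152193), went the other way. It ranged from 18.5 to 37.1 CPM with vehicle (median 29.1), from 15.2 to 34.6 CPM with OCA (median 20.7), and from 14.6 to 25.3 CPM with INT-787 (median 19.5). All 9 mice on INT-787 lay below the vehicle median and 4 below the lowest vehicle mouse. Ccnd2 fell with INT-787 (log2 fold change -0.51, SE 0.14, adjusted p = 0.0075), and its value with OCA was -0.40 (SE 0.14, adjusted p = 0.077). Between the drugs the difference was -0.11 with a 95% interval from -0.40 to 0.17, so an equal fall with OCA lies within the error. Without OCA replicate 8, the mouse with 34.6 CPM, Ccnd2 fell with OCA as well (-0.52, adjusted p = 0.0071).

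Of the other G1 members, none passed the TMM-normalized edgeR test with all mice, although Cdk2 and Cdk4 passed in some alternatives. The genes of cyclin E, which with CDK2 commits the cell to S phase, were expressed at a low level (means of 1.69 to 2.81 CPM). Ccne2 had a log2 fold change of 0.65 with OCA (SE 0.26, adjusted p = 0.15) and 0.30 with INT-787 (SE 0.27), and Ccne1 had 0.18 and 0.08. Cdk2 was at -0.41 between INT-787 and OCA (SE 0.13, adjusted p = 0.059), a difference called by DESeq2 (adjusted p = 0.046) and with upper-quartile normalization (adjusted p = 0.042). Without vehicle replicate 5, Cdk2 was called lower with INT-787 both against OCA (-0.41, adjusted p = 0.041) and against vehicle (-0.35, adjusted p = 0.047). Cdk4, the partner of the D cyclins, had -0.71 with INT-787 (adjusted p = 0.051; 0.034 with upper-quartile normalization), but that value rested on vehicle replicate 5. That mouse had 236 CPM where the other vehicle mice had 33.5 to 59.4 CPM, and 641 bases of Cdk4 exons overlap Tspan31 on the opposite strand. Without it the log2 fold change of Cdk4 was -0.16 (adjusted p = 0.30).

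**Figure D2:**
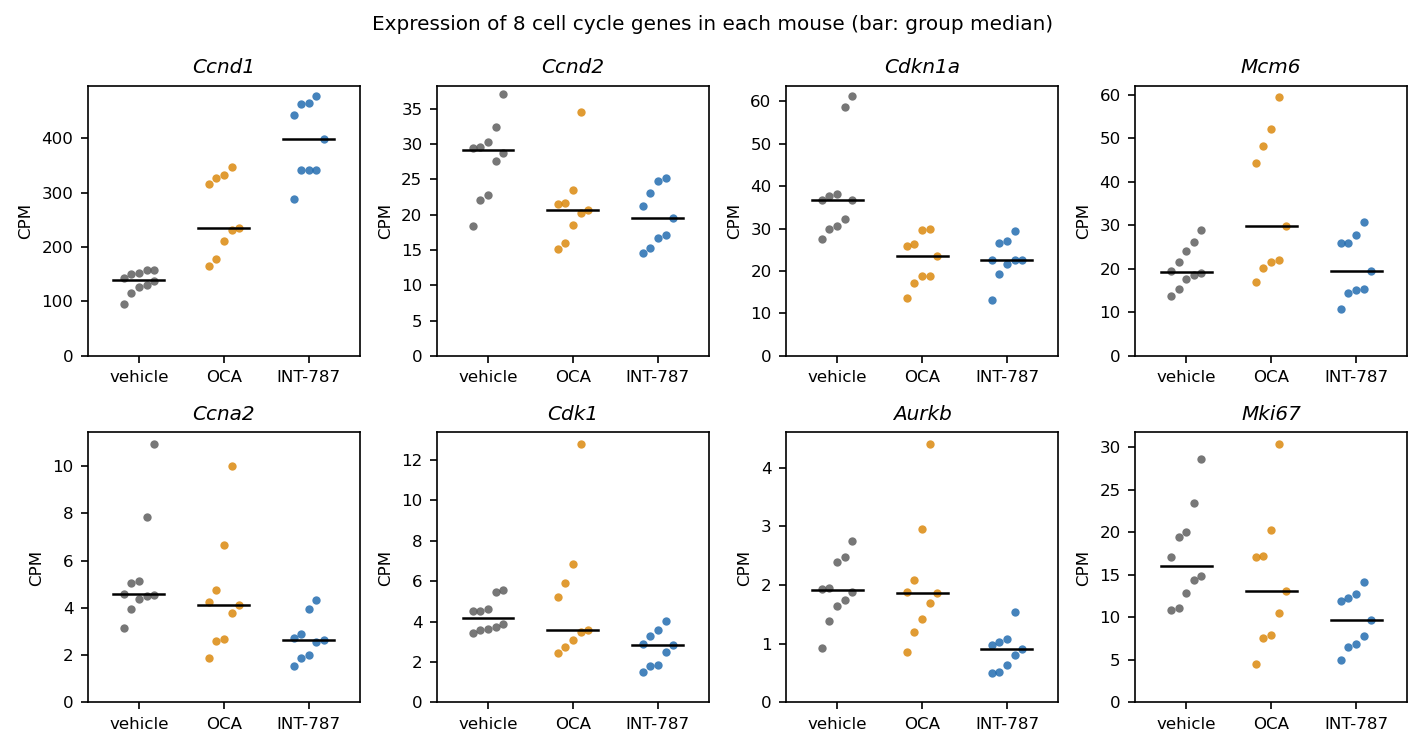
Normalized expression (CPM, y axis, from 0) of 8 members in each mouse, by group, with the group median as a bar. The groups do not overlap for Ccnd1 between vehicle and either drug, whereas 1 OCA mouse (replicate 8) is the highest of its group for Ccnd2, Mcm6, Ccna2, Cdk1, Aurkb, and Mki67.

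Of the 3 CDK inhibitors, 1 fell with both drugs. Cdkn1a encodes p21, the inhibitor of CDK2 and other CDKs that p53 induces after DNA damage and stress (chr17:29090976-29100727, plus strand). It had a lowest, median, and highest value of 27.5, 36.8, and 61.2 CPM with vehicle, 13.6, 23.6, and 29.9 CPM with OCA, and 13.1, 22.5, and 29.4 CPM with INT-787. All mice on either drug were below the vehicle median, and 7 of 9 on OCA and 8 of 9 on INT-787 were below the lowest vehicle mouse. Cdkn1a fell to 0.583 of vehicle with INT-787 (log2 fold change -0.78, SE 0.16, adjusted p = 0.00071) and to 0.580 with OCA (-0.79, SE 0.16, adjusted p = 0.0015). The drugs differed by 0.01 on the log2 scale, with a 95% interval from -0.33 to 0.34. Cdkn1b (p27) and Cdkn2c (p18, an inhibitor of CDK4 and CDK6) did not pass the test and had positive values with both drugs, from 0.07 to 0.31. At an unadjusted p under 0.05 both were higher with OCA, and 0 with INT-787.

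The stretch upstream of the outer start of Cdkn1a is shown as that of the member with the smallest p among those with a promoter in the RefSeq table. It is the plus strand of chr17:29090729-29090975 (RefSeq, GRCm38), with an element for p53 in capitals, 51 bases before the RefSeq start.
Cdkn1a: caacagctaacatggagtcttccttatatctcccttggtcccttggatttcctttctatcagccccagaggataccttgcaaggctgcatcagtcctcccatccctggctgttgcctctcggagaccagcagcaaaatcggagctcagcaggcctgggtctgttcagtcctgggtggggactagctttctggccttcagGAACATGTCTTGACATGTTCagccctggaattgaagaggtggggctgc
The element was searched as the p53 consensus of 20 letters with no spacer and at most 1 letter off, a search added after the stretch had been read. It was found before 25 of 27025 genes with a promoter in the table (0.0925%), and Cdkn1a was the only member of 32 with it.

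E2f1 and Foxm1, the transcription factors of the G1/S and G2/M waves, did not pass the test. E2f1 was at -0.10 with INT-787 and 0.25 with OCA. Foxm1 was at -0.56 with INT-787 (SE 0.26, adjusted p = 0.12) and -0.06 with OCA, with means of 2.46 CPM with vehicle, 2.41 CPM with OCA, and 1.72 CPM with INT-787.

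Log2 fold changes of the DNA replication members lay higher with OCA than with INT-787, but few calls were made and the OCA mice differed widely. All 7 (Mcm2 to Mcm7, the subunits of the replicative helicase, and Pcna, the sliding clamp of the DNA polymerases) were positive with OCA, with log2 fold changes from 0.17 to 0.74 and a median of 0.37, and 5 had an unadjusted p under 0.05, but Mcm6 alone passed the adjusted test. With INT-787 they lay from -0.19 to 0.29 with a median of 0.03, and the edgeR test called 0, as did DESeq2 and limma-voom, with 0 at an unadjusted p under 0.05, and their median was -0.03 with upper-quartile normalization. Between the drugs all 7 were negative, with a median of -0.29 and Mcm6 again the 1 called, a call lost without OCA replicate 8 and with the replicate block.

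Mcm6 (chr1:128331590-128359664, minus strand) had a lowest, median, and highest value of 13.8, 19.4, and 28.9 CPM with vehicle, 17.1, 30.0, and 59.6 CPM with OCA, and 10.8, 19.6, and 30.7 CPM with INT-787. The OCA mice fell apart into 5 mice above every vehicle mouse and 4 mice within the vehicle range. Mcm6 rose 1.67-fold with OCA (log2 fold change 0.74, SE 0.22, adjusted p = 0.034) and was lower with INT-787 than with OCA (-0.76, SE 0.22, adjusted p = 0.036), and its value with INT-787 against vehicle was -0.02 (95% interval from -0.47 to 0.43). Without OCA replicate 8, the highest mouse, the values were 0.61 (adjusted p = 0.078) and -0.63 (adjusted p = 0.11), and the rise with OCA also missed the threshold without vehicle replicate 5 or 6 (0.72 in both, adjusted p = 0.055 and 0.051). With the replicate number as a block, the values were 0.67 (adjusted p = 0.098) and -0.73 (adjusted p = 0.073), and with sets of neighbouring sample numbers as a block, 0.59 (adjusted p = 0.053) and -0.69 (adjusted p = 0.028). Summed over the 7 genes, the levels were 76.3 to 123 CPM with vehicle (median 102), 80.04 to 206 CPM with OCA (median 116, highest in replicate 8), and 71.5 to 139 CPM with INT-787 (median 97.2). OCA replicates 5, 7, 8, and 9 had 167 to 206 CPM, whereas the other OCA mice (80.04 to 116 CPM) lay within the vehicle range.

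The bases upstream of Mcm6 are shown as those of the replication member with the smallest p. The stretch is the minus strand of chr1:128359706-128359955 (RefSeq, GRCm38), and capitals mark CCAAT (here as ATTGG, its reverse complement), 57 and 14 bases before the start, and E2F words, 110, 106, and 47 bases before it, of which the first 2 overlap.
Mcm6: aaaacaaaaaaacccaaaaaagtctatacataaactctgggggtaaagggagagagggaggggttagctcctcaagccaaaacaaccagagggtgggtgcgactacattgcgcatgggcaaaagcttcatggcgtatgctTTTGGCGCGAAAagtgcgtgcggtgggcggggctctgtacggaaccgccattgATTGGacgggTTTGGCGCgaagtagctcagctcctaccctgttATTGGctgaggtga

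The 4 members that supply deoxynucleotides (Rrm1 and Rrm2, the subunits of ribonucleotide reductase, Tyms, thymidylate synthase, and Tk1, thymidine kinase) did not pass the test. They were positive with OCA (0.04 to 0.37) and negative with INT-787 (-0.42 to -0.05). The edgeR test called 0 of them in any comparison, and at an unadjusted p under 0.05 there were 0 for either drug against vehicle and 3 between the drugs, where DESeq2 called 1 and limma-voom 0. Rrm2, the subunit that is made in S phase, was at -0.79 between INT-787 and OCA (SE 0.26, adjusted p = 0.068), with medians of 7.02 CPM with INT-787 and 9.85 CPM with OCA.

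The 18 mitotic members (cyclins A2, B1, and B2, Cdk1, the mitotic kinases and checkpoint proteins, kinesins and centromere proteins, activators of the anaphase-promoting complex, Mki67, and Top2a) lay lower with INT-787. Of the 17 tested, all 17 were negative compared with vehicle, with a median log2 fold change of -0.71 and a range from -1.14 to -0.37, and 5 fell (29.4%, against 9.48% of all genes). An unadjusted p under 0.05 was reached by 14. With OCA 12 were negative and 5 positive (median -0.20), and the edgeR test called 0, as did DESeq2 and limma-voom, with 1 at an unadjusted p under 0.05. Between INT-787 and OCA all 17 were negative (median -0.57) and 2 were called, against 3.19% of all genes lower. Genes expressed by the same cells vary together, so these are not 17 independent observations.

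The summed level of the 18 genes was 52.4 to 108 CPM with vehicle (median 72.9), 29.4 to 143 CPM with OCA (median 57.5), and 27.9 to 69.6 CPM with INT-787 (median 43.4). The OCA mice spread most widely, from 29.4 CPM in replicate 6 to the highest level of all 28 mice in replicate 8. OCA replicate 8 was also the highest OCA mouse in the summed markers of stellate cells (3542 CPM) and cholangiocytes (181 CPM). Without that mouse all 17 mitotic members were negative with OCA compared with vehicle (median -0.45, 0 called), the median difference between INT-787 and OCA was -0.35 in place of -0.57 with 1 member called, and 8 members fell with INT-787 in place of 5. No vehicle or INT-787 mouse was left out there, but the groups share 1 estimate of spread, on which the adjusted p depends. With 2 groups per fit, Ccnb1, Cdk1, Plk1, Cenpe, Cenpf, Cdc20, and Top2a were called lower with INT-787 as well.

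**Figure D3:**
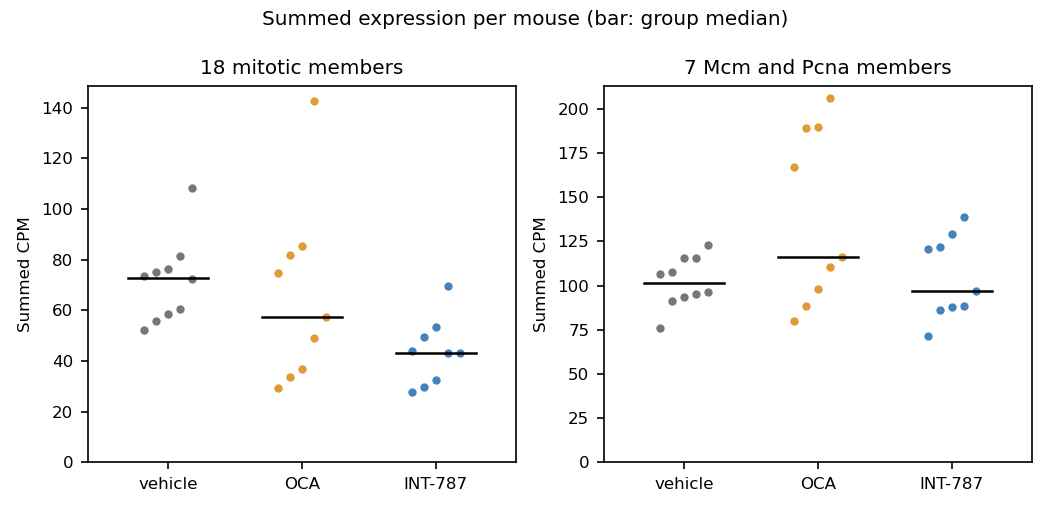
Summed expression per mouse (CPM, y axis, from 0) of the 18 mitotic members (left) and of the 7 Mcm and Pcna members (right), by group, with the group median as a bar. The medians of the mitotic sum descend from vehicle (72.9) through OCA (57.5) to INT-787 (43.4), and the highest point in both panels is OCA replicate 8. In the mitotic sum the OCA mice overlap widely with both other groups. All INT-787 mice but replicates 1 and 5 (53.6 and 69.6) lie below the lowest vehicle mouse (52.4).

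Among the cyclins, Ccna2 (cyclin A2, which acts in S phase and G2) had a lowest, median, and highest value of 3.15, 4.58, and 10.9 CPM with vehicle, 1.86, 4.11, and 9.99 CPM with OCA, and 1.54, 2.62, and 4.35 CPM with INT-787. All 9 mice on INT-787 were below the vehicle median, and 7 below the lowest vehicle mouse. It fell to 0.500 of vehicle with INT-787 (log2 fold change -0.999, SE 0.26, adjusted p = 0.0064), and its values were -0.27 with OCA (adjusted p = 0.65) and -0.73 between the drugs (adjusted p = 0.10). Without vehicle replicate 5, the highest mouse, the fall was -0.83 (adjusted p = 0.018). The B cyclins, which carry CDK1 into mitosis, had values of -0.76 (Ccnb1, adjusted p = 0.093) and -0.66 (Ccnb2, adjusted p = 0.072) with INT-787.

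Cdk1, the kinase at the centre of mitotic entry (chr10:69335146-69352938, minus strand), had a lowest, median, and highest value of 3.44, 4.18, and 5.56 CPM with vehicle, 2.45, 3.58, and 12.8 CPM with OCA, and 1.52, 2.83, and 4.05 CPM with INT-787. Every mouse on INT-787 was below the vehicle median, and 7 were below the lowest vehicle mouse, while 3 OCA mice were above the vehicle range and 3 below it. Cdk1 was lower with INT-787 than with OCA (log2 fold change -0.93, SE 0.25, adjusted p = 0.022), and its difference from vehicle was -0.66 with INT-787 (SE 0.25, adjusted p = 0.058). Without OCA replicate 8 the call moved from the first comparison to the second, with -0.63 (adjusted p = 0.090) and -0.66 (adjusted p = 0.015). Without INT-787 replicate 5 it passed in both (-1.03 and -0.76, adjusted p = 0.016 and 0.036). The call between the drugs was also lost with the replicate block and with 2 groups per fit. In the latter setting Cdk1 was called against vehicle (-0.67, adjusted p = 0.0085).

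The kinases and checkpoint proteins held the deepest fall of the members. Aurkb encodes Aurora B, the kinase that corrects the attachment of chromosomes to the spindle (chr11:69045647-69051664, plus strand). Its lowest, median, and highest values were 0.919, 1.91, and 2.76 CPM with vehicle, 0.865, 1.86, and 4.41 CPM with OCA, and 0.506, 0.908, and 1.53 CPM with INT-787. All 9 mice on INT-787 lay below the medians of both other groups. Aurkb fell to 0.453 of vehicle (log2 fold change -1.14, SE 0.25, adjusted p = 0.0014) and was as far below OCA (-1.16, SE 0.25, adjusted p = 0.0054), whereas OCA against vehicle was 0.02 (95% interval from -0.47 to 0.51). Both calls held without OCA replicate 8, with -1.14 (adjusted p = 0.00030) and -0.93 (adjusted p = 0.019). The counts behind these values were low, from 1 to 71 per mouse.

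Birc5 encodes survivin, which sits with Aurora B in the chromosomal passenger complex (chr11:117849251-117855743, plus strand). It ran from 1.84 to 4.04 CPM with vehicle (median 3.04), from 0.969 to 7.01 CPM with OCA (median 2.13), and from 0.820 to 2.22 CPM with INT-787 (median 1.47). All 9 mice on INT-787 were below the vehicle median and 7 below its lowest mouse. It fell with INT-787 (log2 fold change -1.05, SE 0.28, adjusted p = 0.0073), and the difference from OCA was -0.91 (SE 0.28, adjusted p = 0.051), or -0.60 (adjusted p = 0.21) without OCA replicate 8 and -0.99 (adjusted p = 0.044) without INT-787 replicate 5. Bub1 and Plk1, a checkpoint kinase and the Polo-like kinase of mitotic entry, had -0.96 (adjusted p = 0.051) and -0.88 (adjusted p = 0.063) with INT-787. Bub1 was called without vehicle replicate 5 (-1.05, adjusted p = 0.035) or 6 (-0.99, adjusted p = 0.044) and with the replicate block (-0.99, adjusted p = 0.033), but not by DESeq2 or limma-voom. Plk1 was called by limma-voom (-1.03, adjusted p = 0.031) and with 2 groups per fit (-0.88, adjusted p = 0.016), but not by DESeq2 or with the replicate block. Bub1b and Aurka had -0.37 and -0.52 with adjusted p of 0.32 and 0.23.

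Of the kinesins and centromere proteins, Kif20a, a motor of cytokinesis, was the 1 called. It ran from 2.41 to 7.10 CPM with vehicle (median 4.84), from 1.27 to 5.65 CPM with OCA (median 3.13), and from 1.40 to 5.25 CPM with INT-787 (median 2.68). Of the mice on INT-787, 8 of 9 were below the vehicle median. The fall with INT-787 was -0.71 (SE 0.26, adjusted p = 0.048), with -0.55 for OCA (adjusted p = 0.23). This call stood at the threshold and was lost in 22 of 38 alternatives, among them without vehicle replicate 6 and without vehicle replicate 5 (-0.65, adjusted p = 0.083), and 1271 bases of Kif20a exons overlap Cdc23 on the opposite strand. Cenpe and Cenpf, which bind microtubules at the kinetochore, had -0.70 (adjusted p = 0.084) and -0.91 (adjusted p = 0.065). The partners of the anaphase-promoting complex, Cdc20 and Ube2c, had -0.60 and -0.57 (adjusted p = 0.10 and 0.27).

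Mki67, the gene of the Ki-67 protein that coats mitotic chromosomes and is the standard stain for cycling cells (chr7:135689784-135716361, minus strand), had a lowest, median, and highest value of 10.8, 15.99, and 28.6 CPM with vehicle, 4.50, 13.1, and 30.4 CPM with OCA, and 5.01, 9.68, and 14.1 CPM with INT-787. All 9 mice on INT-787 were below the vehicle median and 5 below its lowest mouse, while the OCA mice covered the whole range. Mki67 fell to 0.544 of vehicle with INT-787 (log2 fold change -0.88, SE 0.26, adjusted p = 0.015). With OCA it was at -0.31 (SE 0.25, adjusted p = 0.58), and the difference between the drugs was -0.57 with a 95% interval from -1.10 to -0.04 (adjusted p = 0.22). Top2a, topoisomerase II alpha, which untangles sister chromatids, had -0.50 with INT-787 (SE 0.24, adjusted p = 0.15), 0.09 with OCA (adjusted p = 0.91), and -0.60 between the drugs (adjusted p = 0.16), at 6.26 to 13.6, 4.13 to 19.2, and 4.26 to 10.6 CPM with vehicle, OCA, and INT-787.

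Levels of different members can be set side by side only per length of exon. In vehicle mice the mean was highest for Ccnd1 (29.1 CPM per kb), then Cdk4 (19.1, with replicate 5 included). Pcna was at 8.98, a value given without rank. The mitotic members were far lower, from 0.074 CPM per kb for Kif11 to 2.66 for Ccnb2, with Mki67 at 1.71.

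Upstream bases are shown for Cdk1 and Birc5, the mitotic members with the smallest p among those with a promoter in the RefSeq table. Bases inside the annotated gene were left out here and above. Capitals mark CCAAT (or ATTGG), the CHR words TTTGAA or TTTAAA, and E2F words. The Cdk1 stretch is the minus strand of chr10:69352939-69353162 and the Birc5 stretch the plus strand of chr11:117848987-117849236 (GRCm38).
Cdk1: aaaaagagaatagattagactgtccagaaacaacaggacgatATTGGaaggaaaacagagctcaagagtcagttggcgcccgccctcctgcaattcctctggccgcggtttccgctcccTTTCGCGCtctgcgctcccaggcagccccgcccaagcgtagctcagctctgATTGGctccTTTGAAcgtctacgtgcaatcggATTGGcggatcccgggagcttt
Birc5: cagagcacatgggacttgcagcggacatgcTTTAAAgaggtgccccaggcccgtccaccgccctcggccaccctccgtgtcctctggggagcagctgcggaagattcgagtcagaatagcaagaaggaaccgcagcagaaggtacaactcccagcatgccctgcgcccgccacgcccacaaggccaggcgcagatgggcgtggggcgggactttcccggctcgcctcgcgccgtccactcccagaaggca
In Cdk1 the capitals stand for CCAAT at 208, 80, and 48 bases before the RefSeq start, for an E2F word at 131, and for TTTGAA at 71, and in Birc5 for TTTAAA at 220.

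The 250 bases before the start were searched on both strands in the 32 members with an entry (Mcm4, Kif20a, Ccna2, Ccnd1, Aurkb, Ccnd2, Foxm1, and Ccne2 had none). CCAAT, bound by NF-Y, was found in 24 of 32 members (75.0%) and in 14 of 15 mitotic members (93.3%), against 37.5% of 27025 genes in the table and 40.5% of the 9982 tested genes with an entry. A CHR word, the element through which DREAM and B-MYB act, was found in 16 of 32 and in 11 of 15 mitotic members (73.3%), against 28.1% and 20.9%. An E2F word (TTTCCCGC, TTTCGCGC, TTTGCCGC, or TTTGGCGC) was found in 5 of 32 (Cdk1, Cdk2, Mcm5, Mcm6, and Mcm7; 15.6%), against 2.16% and 3.82%. The inverted repeat of AGGTCA with 1 base between, the classic FXR element, was searched with no letter off. It was found in 0 of 32 members, 0 of the 9982 tested genes, and 2 of 27025 genes. So rare a match cannot tell whether FXR binds the members. These are matches of letters, and no test was made of them. Of the mitotic members that fell with INT-787, Mki67 and Birc5 alone had an entry. Mki67 had both CCAAT and a CHR word, as did Top2a, Plk1, and Ccnb1, which did not pass the test. Birc5 had a CHR word and no CCAAT.

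Further genes of the cycle were counted in lists that hold no member. Of 46 tested genes of G2 and mitosis, 7 fell and 1 rose with INT-787, 1 fell and 1 rose with OCA, and 2 had lower levels in INT-787 than in OCA mice (Spc25 and Tacc3, a spindle protein), against 9.48% of all genes lower and 10.2% higher with INT-787, 2.45% and 4.15% with OCA, and 3.19% lower between the drugs. The median log2 fold changes were -0.43, -0.04, and -0.35, with 40, 25, and 42 of 46 negative. Spc25, a subunit of the kinetochore complex that holds microtubules, averaged 11.5 ± 2.82 CPM (mean ± SD) in vehicle mice, 8.71 ± 1.88 CPM in OCA mice, and 4.97 ± 0.934 CPM in INT-787 mice. It fell with INT-787 (-1.24, SE 0.14, adjusted p = 6.2e-08) and with OCA (-0.43, SE 0.14, adjusted p = 0.049), and was lower with INT-787 than with OCA (-0.81, adjusted p = 0.00054). The fall of Spc25 with OCA missed the threshold in 22 of 38 alternatives, among them without vehicle replicate 5 (adjusted p = 0.058) and with the replicate block (adjusted p = 0.073), whereas its other 2 calls held in all 38. Cdca3, which marks the WEE1 kinase for breakdown, fell with INT-787 (-0.92, SE 0.21, adjusted p = 0.0016), as did Rangap1 (-0.40, adjusted p = 0.0013), a regulator of nuclear transport and the spindle. The falls of Pbk and Incenp with INT-787, also among the 7, missed the threshold in 25 and 17 of 38 alternatives. Hjurp, the chaperone of the centromeric histone, was the gene of this list that rose with both drugs (0.55 and 0.42, adjusted p = 7.3e-06 and 0.00074) and had 8.58 CPM per kb in vehicle mice, above each mitotic member.

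Of 41 tested genes of S phase, 4 rose and 2 fell with INT-787, 4 rose and 0 fell with OCA, and 2 had lower levels in INT-787 than in OCA mice. With INT-787 these counts were near or below the background of 10.2% higher and 9.48% lower over all genes. For OCA the background was 4.15% higher and 2.45% lower, and between the drugs 3.19% were lower. With upper-quartile normalization 1 rose with INT-787 and 2 with OCA. The medians were 0.08, 0.26, and -0.23, and 37 of 41 were positive with OCA, where 15 had a positive value and an unadjusted p under 0.05. DESeq2 called 6 higher and 0 lower with OCA, and limma-voom 3 and 0. Uhrf1, which carries DNA methylation onto new strands, rose with OCA (1.10, SE 0.30, adjusted p = 0.021) and was at 0.39 with INT-787 (adjusted p = 0.41), and its rise missed the threshold with the replicate block (adjusted p = 0.094) and in 5 other alternatives. Cdt1, which loads the MCM helicase, rose with INT-787 and OCA (0.51 and 0.61, adjusted p = 0.048 and 0.039), calls that were lost in 23 and 18 of 38 alternatives, among them, for both, without vehicle replicate 5. Rpa2, a subunit of the single-strand binding protein, rose with OCA (0.43, SE 0.11, adjusted p = 0.013). Prim1, the primase subunit, was lower with INT-787 than with OCA (-0.65, SE 0.17, adjusted p = 0.019). Gins2, a helicase cofactor, fell with INT-787 (-1.43, SE 0.40, adjusted p = 0.0096), but its vehicle values spread as 3.26 ± 4.07 CPM and 2758 bases of its exons overlap Gse1 on the opposite strand. Its call was lost in 3 of 38 alternatives, among them without vehicle replicate 5 and with sets of neighbouring sample numbers as a block. Without vehicle replicate 5, 2 genes of the list rose and 0 fell with INT-787, and 2 rose with OCA. Without OCA replicate 8, 3 rose with OCA and 0 differed between the drugs.

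**Figure D4:**
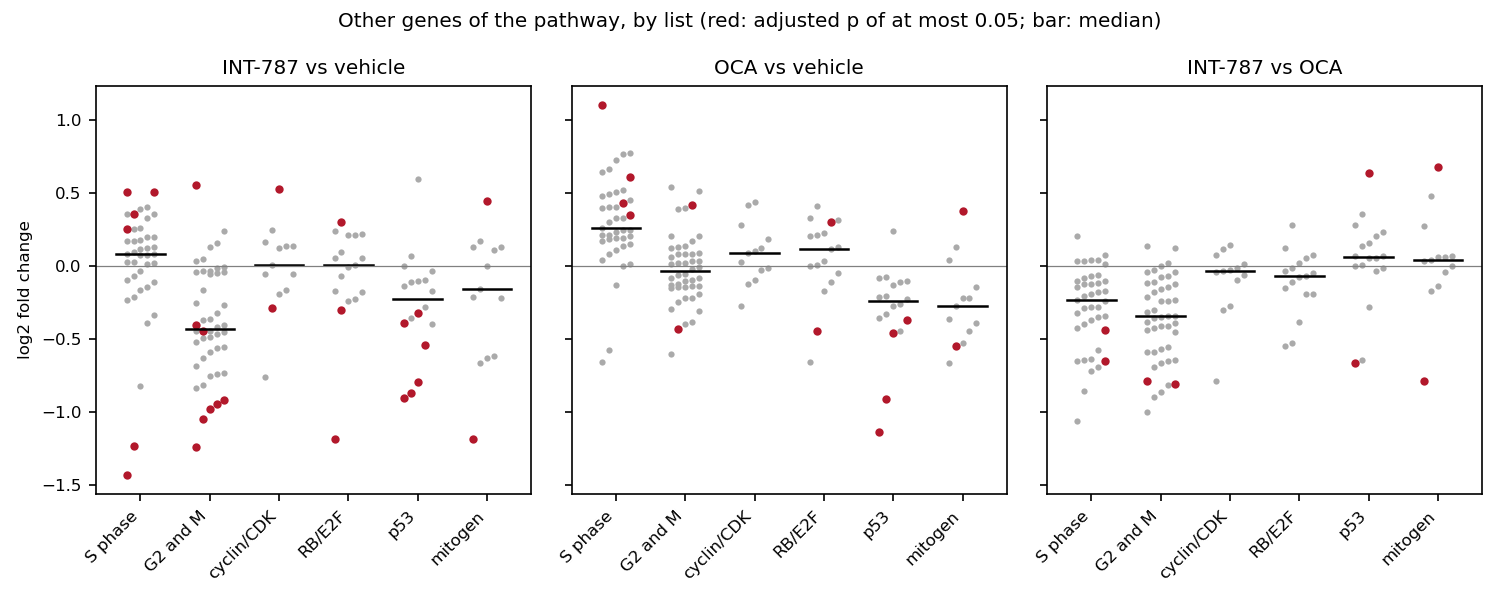
Log2 fold change (y axis) of the tested genes of 6 further lists that hold no member (x axis; S phase 41, G2 and M 46, other cyclins and CDKs 13, RB/E2F 17, p53 18, and mitogen genes 13) in the 3 comparisons, with genes at an adjusted p of at most 0.05 in red and the median as a bar. The median of the G2 and M list lies below 0 with INT-787 (-0.43), that of the S phase list above 0 with OCA (0.26), and that of the p53 list below 0 with both drugs (-0.23 and -0.24).

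The p53 list (p53 and its targets, without Cdkn1a) gave 6 genes that fell of 18 with INT-787 and 4 of 18 with OCA, and 0 that rose with either, against 9.48% and 2.45% of all genes lower, with 16 and 17 negative, and between the drugs 1 was higher with INT-787 (Gdf15) and 1 lower (Phlda3). DESeq2 called 7 and 4 lower and 0 higher, and limma-voom 6 and 4 and 0, and at an unadjusted p under 0.05 there was 1 higher with INT-787 and 0 with OCA. Plk3, a stress kinase, fell with INT-787 (-0.90, SE 0.17, adjusted p = 0.00015) and with OCA (-1.14, SE 0.17, adjusted p = 1.9e-05), at 31.6 ± 8.07 CPM in vehicle mice, 14.6 ± 4.95 CPM in OCA mice, and 17.1 ± 3.75 CPM in INT-787 mice. Ccng1, cyclin G1, a classic p53 target, fell with both (-0.32 and -0.37, adjusted p = 0.0016 and 0.00079). Gdf15, a stress cytokine, fell with OCA (-0.91, SE 0.19, adjusted p = 0.0013) and was higher with INT-787 than with OCA (0.63, adjusted p = 0.040), a difference lost in 13 of 39 alternatives, among them 10 that each left out 1 mouse (OCA replicate 1, 3, 6, 8, or 9, or INT-787 replicate 1, 2, 3, 5, or 6). Zmat3, an RNA-binding target of p53, fell with INT-787 (-0.54, SE 0.12, adjusted p = 0.0012), as did Phlda3, an inhibitor of AKT (-0.79, adjusted p = 0.0012), which was also below its level with OCA (-0.66, adjusted p = 0.020; without OCA replicate 8, -0.50, adjusted p = 0.068). Bax, the apoptosis effector, fell with INT-787 and OCA (-0.39 and -0.46, adjusted p = 0.016 and 0.011).

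Of 17 tested RB, E2F, and DREAM genes, 1 rose and 2 fell with INT-787, 1 rose and 1 fell with OCA, and 0 differed between the drugs (DESeq2 and limma-voom 0 as well, with 3 at an unadjusted p under 0.05). With INT-787 these counts were near or below the shares of all genes (10.2% higher and 9.48% lower), so the genes named are single results and not a change of the list. E2f8, an E2F that represses and is itself made in S phase, fell with INT-787 (-1.19, SE 0.28, adjusted p = 0.0023). Rbl2 (p130), the pocket protein of DREAM in resting cells, rose with INT-787 (0.30, SE 0.09, adjusted p = 0.023), and with OCA Rb1 fell (-0.45, adjusted p = 0.036) and Tfdp2, a partner of E2F, rose (0.30, adjusted p = 0.047). These 3 calls were lost in 4, 13, and 27 of 39 alternatives. Without vehicle replicate 5, Rb1 (of which 896 bases of exon overlap Lpar6 and Rcbtb2 on the opposite strand) and Tfdp2 had an adjusted p of 0.086 and 0.065 with OCA, and with upper-quartile normalization Rbl2 and Tfdp2 missed the threshold, as Rbl2 did without INT-787 replicate 3 or 9. Of 13 other cyclins, CDKs, and regulators, Wee1, the kinase that holds CDK1 inactive, rose with INT-787 (0.53, SE 0.15, adjusted p = 0.013) and Ccnd3, cyclin D3, fell (-0.29, SE 0.10, adjusted p = 0.038), 1 gene each way and again below the shares of all genes. The fall of Ccnd3 missed the threshold in 14 of 39 alternatives, among them the replicate block (adjusted p = 0.094) and without INT-787 replicate 5 (adjusted p = 0.082). In the other comparisons edgeR, DESeq2, and limma-voom called 0 of the 13, with 3 for OCA against vehicle and 1 between the drugs at an unadjusted p under 0.05.

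Of 13 mitogen genes (liver growth factors, their receptors, and early response genes), 1 rose and 1 fell in each comparison, which with INT-787 was below the shares of all genes (10.2% and 9.48%). Met, the receptor of hepatocyte growth factor, rose with INT-787 (0.44, SE 0.10, adjusted p = 0.0026) and with OCA (0.38, SE 0.10, adjusted p = 0.022), the latter not called without OCA replicate 9. Egfr, the receptor of epidermal growth factor, averaged 87.6 ± 27.5 CPM in vehicle mice, 66.9 ± 25.9 CPM in OCA mice, and 38.7 ± 6.05 CPM in INT-787 mice, and fell with INT-787 (-1.18, SE 0.19, adjusted p = 2.6e-05), also below OCA (-0.79, adjusted p = 0.012). Jun, the early response factor, fell with OCA (-0.55, SE 0.10, adjusted p = 0.00035) and was at 0.13 with INT-787 (adjusted p = 0.40), with a difference between the drugs of 0.67 (adjusted p = 7.2e-05).

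Some markers of the cell types that could carry these transcripts moved with the drugs. Over all genes, 10.2% were higher and 9.48% lower with INT-787, 4.15% and 2.45% with OCA, and 2.19% and 3.19% with INT-787 against OCA. Of 8 hepatocyte markers, 4 rose with each drug and 0 fell, and the summed level was 62273 to 136114 CPM with vehicle, 106171 to 198635 CPM with OCA, and 96376 to 168979 CPM with INT-787. Of 10 macrophage markers, 5 fell with INT-787 and 0 changed with OCA (0 by DESeq2 and limma-voom, 1 at an unadjusted p under 0.05), and 4 had lower levels in INT-787 than in OCA mice (Cd68, Trem2, Gpnmb, and Itgax). Timd4, Clec4f, and Vsig4, markers of resident Kupffer cells, were at 1.12, 0.14, and 0.03 between INT-787 and OCA (adjusted p = 0.24, 0.80, and 0.96), and against vehicle Timd4 was at 0.68 with INT-787 (adjusted p = 0.38), while the other 9 were negative. The summed level of the 10 was 616 to 844 CPM with vehicle, 492 to 1096 CPM with OCA, and 405 to 672 CPM with INT-787. Of 10 stellate cell markers, 6 fell with INT-787, 1 (Lum) rose with OCA, and 5 had lower levels in INT-787 than in OCA mice, with summed levels of 1432 to 2651, 1332 to 3542, and 523 to 1300 CPM. No marker of these 3 lists was at 0 in a group. Part of the mitotic members (5 of 17 tested) and part of the macrophage and stellate markers (5 and 6 of 10) thus fell in the same group of mice. The part of these cells in the fall of those mitotic members was not tested.

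Within groups, Mki67 was positively related to Top2a, Mcm2, and Ccnd1. Over the 28 mice, with the group means taken off the log2 CPM, Mki67 went with Top2a (Pearson r = 0.85, Spearman rho = 0.83, permutation p = 1e-05 for both, the smallest that 100000 permutations can give, adjusted 1e-04 over 10 relations, two-sided). The r was 0.80 without the 2 mice farthest from the median, and 0.85, 0.93, and 0.60 within vehicle, OCA, and INT-787. Mki67 went with Mcm2 as well (r = 0.68, permutation p = 0.00060, adjusted 0.0030; rho = 0.73, permutation p = 0.00019, adjusted 0.00095; 0.62 without 2 mice). For Ccnd1 the r was 0.51 (permutation p = 0.019, adjusted 0.047; rho = 0.59, permutation p = 0.0043, adjusted 0.014; 0.52 without 2 mice), with 0.28, 0.63, and 0.41 within the groups, so that within a group Ccnd1 and Mki67 were positively related while INT-787 moved their group levels in opposite directions.

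Of the cell type markers, Col1a1 (type I collagen of stellate cells) had r = 0.46 (permutation p = 0.017, adjusted 0.047), but rho = 0.39 (permutation p = 0.047, adjusted 0.12), and r = 0.32 without the 2 farthest mice, so the relation rests in part on those mice. Within vehicle, OCA, and INT-787 it was 0.26, 0.59, and 0.50. The relations with Cdkn1a (r = 0.38, permutation p = 0.061, adjusted 0.12), Adgre1 of macrophages (0.30, 0.20, and 0.33), Stab2 of endothelium (0.20, 0.30, and 0.43), Krt19 of bile ducts (0.19, 0.47, and 0.54), Cd3e of T cells (-0.14, 0.49, and 0.54), and Alb of hepatocytes (-0.08, 0.70, and 0.70; r, permutation p, and adjusted p in each) did not pass the test. For Adgre1 the r was 0.47 without the 2 farthest mice, and 0.58, 0.17, and 0.42 within the groups.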

How the data were processed

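Liver messenger RNA of 28 mice was prepared with a stranded kit and sequenced on a NextSeq 500. The authors aligned reads to GRCm38 with STAR 2.5.2a and Ensembl release 89 annotation and deposited raw counts per gene, without normalization. The counting program and its use of strand are not given in the sources used here. Symbols, exons, and opposite-strand overlaps came from GENCODE M21 (GRCm38), which matched 21858 of 21935 genes, and promoters from RefSeq.

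Groups came from the sample labels. Counts were filtered with filterByExpr (12580 genes), TMM-normalized, and tested with edgeR 4.0.16 (glmQLFit, glmQLFTest, R 4.3.3) in 1 model of the 3 groups without covariates, adjusted by the Benjamini-Hochberg method over all genes tested, at 0.05. DESeq2 1.42.0, the tool of the study, limma 3.58.1 (voom), other scalings, filters, and blocks, and each mouse left out were alternatives. CPM used TMM-scaled totals, and log2 CPM for the relations had a prior count of 2. The code of the test was tried on simulated counts with planted changes, which is not a check of the results given here. P-values measure the spread between mice.

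Named genes were all members called in any comparison, with Ccnd1, Cdkn1a, Mki67, and Top2a always given, up to 4 called genes of each wider list by smallest p, and promoters of the 4 members with the smallest p that had an entry. Other members by role, and Tacc3, Pbk, Incenp, Cdt1, Phlda3, Bax, and cell type markers, were named after their values were seen. The lists were 6 of the pathway and 10 of cell types. The members and lists were chosen with earlier results of these data known.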

Additional observations from a re-analysis of the deposited data

Results flagged for a closer look

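Among 117 sets of values (39 members in 3 groups), 3 had a mouse whose gap to the nearest other mouse was too wide by Dixon's ratio on log2 CPM, where chance alone gives about 1 in 20. Cdk4 was at 236 CPM in vehicle replicate 5, where the other vehicle mice had at most 59.4 CPM. Tyms was at 2.76 CPM in vehicle replicate 6, where the others had at least 5.97 CPM, and that library had the lowest total, 1009593 counts. Top2a was at 10.6 CPM in INT-787 replicate 5, where the others had at most 6.55 CPM, and the same mouse had the highest mitotic sum of its group, 69.6 CPM. Without INT-787 replicate 5, 13 members fell with INT-787 compared with vehicle, 11 of them mitotic, in place of 7 and 5.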

How the results depend on the processing

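No member that passed the test changed sign in any alternative. The calls of Ccnd1 (3 comparisons), Cdkn1a (both drugs), Aurkb (against vehicle and OCA), and, with INT-787 against vehicle, Ccnd2, Ccna2, and Birc5 held in all alternatives that could give them, whereas Kif20a lost its call in 22, Mcm6 in 15 (OCA against vehicle) and 13 (between the drugs), Cdk1 in 5, and Mki67 in 1. With INT-787 against vehicle, the 7 members lower became 12 with upper-quartile normalization, 11 with limma-voom, 14 with 2 groups per fit, 12 with the number set (neighbouring sample numbers) as a block, and 4 with at least 10 counts in every mouse, a filter that left 12 members, and 6 to 13 with 1 mouse left out. With OCA against vehicle, the 2 members higher became 1 with limma-voom, with the number set as a block, at an adjusted p of at most 0.01, without vehicle replicates 5 and 6 together, and 1 to 2 with 1 mouse left out, and the 1 member lower became 2 with DESeq2, limma-voom, and the number set, and 1 to 2 with 1 mouse left out. Between the drugs, the 3 members lower became 5 with upper-quartile normalization, 6 with DESeq2, 1 with 2 groups per fit, at 0.01, or with at least 10 counts, and 1 to 5 with 1 mouse left out. Over all genes, 0.01 left 1334, 435, and 247 calls, and 1 mouse left out gave 2116 to 2733, 666 to 936, and 443 to 888, the last lowest without OCA replicate 8. Apart from the filter and threshold, the cause was not tested.

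Replicate numbers were not used as pairs in the main test. The correlation of same-numbered mice exceeded 0.1 in 2, 3, and 6 of 9 pairs, and 2, 1, and 5 of 9 mice correlated best with their own number. For the number sets, 3 of 9, 4 of 8, and 6 of 8 pairs exceeded 0.1 (lowest -0.15, -0.20, and -0.17, median 0.08, 0.10, and 0.20). By best match, 3, 1, and 4 of 9 mice went with their own set. Between INT-787 and OCA, structure shared by number was thus not excluded. OCA replicate 9 stood alone in its number set. With the replicate block the members higher were 1, 1, and 1 and the members lower 8, 1, and 1 in the 3 comparisons, and Mcm6 and Cdk1 were not called between the drugs. Depth limits members with low counts, several of them mitotic with 0 to 2 counts in vehicle replicate 6.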

Other observations

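Of the remaining cell types, 2 of 6 endothelial, 1 of 5 cholangiocyte, and 1 of 3 tested B and plasma cell markers fell with INT-787 (Pecam1 and Cdh5, Cftr, and Cd79b), against 9.48% of all genes. For these lists edgeR, DESeq2, and limma-voom called 0 with OCA or between the drugs. The summed levels were 153 to 314, 145 to 220, and 108 to 238 CPM for endothelial cells and 3.47 to 12.8, 3.60 to 14.5, and 3.07 to 6.53 CPM for B and plasma cells, in vehicle, OCA, and INT-787. For OCA against vehicle, 4, 1, and 2 markers of these 3 lists were lower at an unadjusted p under 0.05, and for INT-787 against OCA 0, 2, and 1. T and NK cell, neutrophil, dendritic cell, and erythroid markers gave 0 calls by edgeR in each comparison, with 1 neutrophil marker lower with INT-787 and 1 erythroid marker higher with OCA at an unadjusted p under 0.05. DESeq2 called 1 neutrophil marker lower with INT-787 and limma-voom 0. Ly6g, of neutrophils, was at 0 in all vehicle mice.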
